A study of Mus musculus with 4 samples.

Results

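The 10 genes described here belong to the Notch pathway: the ligands Dll4, Dll1, Jag1 and Jag2, the receptors Notch1 and Notch4, the DNA-binding factor Rbpj, and the target genes Hes1, Hey1 and Heyl. They were chosen by symbol among the 32285 genes of the deposited matrices, and all 10 were found. Their RNA was measured in nuclei of the floating, adipocyte-enriched fraction of the thymus and of epigonadal white fat (the visceral fat pad at the gonads of male mice), and their chromatin in nuclei of the same thymic fraction.

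Notch signalling passes between neighbouring cells. A ligand of the Delta (Dll) or Jagged (Jag) family on the surface of a cell pulls on a Notch receptor of its neighbour, the receptor is cut, and its intracellular part enters the nucleus. There it binds RBPJ and switches on genes of the Hes and Hey families, which encode repressors of transcription. In the thymus, Dll4 on thymic epithelial cells engages Notch1 on incoming progenitors and commits them to the T-cell fate. In blood vessels, Dll4, Jag1, Notch1 and Notch4 act between endothelial cells during sprouting and in the choice of arterial identity. In adipose tissue, Notch activity in fat cells is known for its effect on thermogenic genes and on the adipocyte state.

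All animals were wild-type, naïve C57/BL6 mice on standard chow, as far as the series' design text describes them. The thymic RNA library came from 6 pooled thymi of 4-month-old males, and the epigonadal RNA library came from 4-month-old males, whose number the sources used here do not give. A multiome library of 16 pooled thymi of 6-month-old females gave the chromatin data, and its RNA was not analysed here. With 1 library per group there was no replicate and no test: intervals are exact 95% intervals that cover counting error only, and each comparison is between these libraries, not between conditions.

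The thymic matrix held 22600 barcodes, of which 365 carried a label of the authors, and the epigonadal matrix held 5043, of which 1564 were labelled. The labels, Ad Ia and Ad Ib (summed here as Ad I) and Ad IIa, Ad IIb and Ad IIc, divide nuclei that the authors call adipocytes. Labelled nuclei had a median of 1479 UMIs (unique molecules) in thymus and of 966 in epigonadal fat. Mitochondrial genes took a median of 14.7% and 5.19% of these UMIs, and 69.3% in the thymic barcodes without a label. Levels are given as CPM, UMIs per 1000000 UMIs of nuclear-encoded genes in the summed nuclei of a label. The libraries shared 147 barcode sequences, and 0 of these were labelled in both.

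The label of adipocyte was checked against marker genes before any Notch gene was described. The 12 endothelial markers, among them Pecam1 (a junction protein of the vessel lining), summed to 1244 CPM in thymic Ad I and to 10041, 10511 and 9067 CPM in the thymic labels Ad IIa, Ad IIb and Ad IIc. Thymic Ad I was uneven, with 72.3 CPM (2 UMIs) in Ad Ia and 2563 CPM (63 UMIs) in Ad Ib. Epigonadal sums were 1255, 7687 and 9770 CPM in Ad I, Ad IIa and Ad IIb, and 488 CPM in Ad IIc. Adipoq, which encodes the adipocyte hormone adiponectin, stood at 230 CPM in thymic Ad I and at 9.96 CPM in thymic Ad IIa, against 449 CPM in epigonadal Ad IIa and 2513 CPM in epigonadal Ad IIc. The data therefore go against the adipocyte label for most labelled thymic nuclei, and the labels are used below only as names of groups. Epigonadal Ad IIa and Ad IIb held endothelial sums near the thymic ones. Epigonadal barcodes without a label, a mixed set, held Adipoq at 749 CPM, so the 449 CPM of epigonadal Ad IIa does not settle what these nuclei are. Haemoglobin and other erythroid markers summed to 25948 CPM in thymic Ad IIc and to 107 to 1015 CPM in the other labels of both libraries. The thymic epithelial markers held 20 UMIs (37.4 CPM) in labelled thymic nuclei, and Foxn1, the defining factor of thymic epithelium, was at 0 there.

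The promoters of 5 members are printed next, to be read beside the counts of open chromatin given for each of them below. Each is the 250 bases before the annotated start, 5′ to 3′ along the gene, from RefSeq on GRCm38.p6, and capitals mark TGGGAA, the core letters bound by RBPJ, on either strand. Of the 10 genes, 7 had an entry, with Dll1 and Jag2 searched but not printed; Hes1, Hey1 and Heyl did not.
Dll4, chr2:119325534-119325783, plus strand: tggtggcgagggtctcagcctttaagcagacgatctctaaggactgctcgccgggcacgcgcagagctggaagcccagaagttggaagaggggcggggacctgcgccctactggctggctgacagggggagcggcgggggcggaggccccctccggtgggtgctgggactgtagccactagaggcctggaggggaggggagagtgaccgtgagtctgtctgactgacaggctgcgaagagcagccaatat
Jag1, chr2:137116521-137116770, minus strand: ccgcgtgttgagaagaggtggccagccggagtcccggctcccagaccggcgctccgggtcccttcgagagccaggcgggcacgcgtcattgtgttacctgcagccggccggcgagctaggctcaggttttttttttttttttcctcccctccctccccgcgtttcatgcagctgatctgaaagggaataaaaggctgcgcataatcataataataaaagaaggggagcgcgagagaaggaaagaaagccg
Notch1, chr2:26503823-26504072, minus strand: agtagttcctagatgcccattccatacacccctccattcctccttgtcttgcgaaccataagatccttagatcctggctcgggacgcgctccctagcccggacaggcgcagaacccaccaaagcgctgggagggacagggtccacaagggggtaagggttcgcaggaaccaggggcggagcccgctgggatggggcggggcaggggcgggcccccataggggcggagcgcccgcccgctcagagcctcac
Notch4, chr17:34564045-34564294, plus strand: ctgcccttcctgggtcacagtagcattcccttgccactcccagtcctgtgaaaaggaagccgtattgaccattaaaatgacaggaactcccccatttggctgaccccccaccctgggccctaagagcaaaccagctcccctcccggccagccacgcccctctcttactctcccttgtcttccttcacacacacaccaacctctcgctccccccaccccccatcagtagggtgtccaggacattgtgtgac
Rbpj, chr5:53590096-53590345, plus strand: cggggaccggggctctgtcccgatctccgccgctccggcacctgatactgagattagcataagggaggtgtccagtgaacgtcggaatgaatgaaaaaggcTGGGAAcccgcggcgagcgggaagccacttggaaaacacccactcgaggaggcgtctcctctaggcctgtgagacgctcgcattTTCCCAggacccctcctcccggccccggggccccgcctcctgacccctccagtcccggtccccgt

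Among the 7 genes, TGGGAA was found only in the promoters of Rbpj itself. The Rbpj promoter printed above held it with first bases at -149 and -65 from the start, and the second Rbpj entry, which overlaps the first, held the latter of these matches at -205 from its own start. The motif occurs by letters in 7094 of 32851 promoters of this length (21.6%), so a match or its absence is a description of these windows only. The Dll4 promoter was 65.6% G or C with 14 CpG dinucleotides, the Jag1 promoter 57.2% with 20 and the Notch1 promoter 66% with 16. The Notch4 promoter held 4 CpG dinucleotides, below the median of 6 over all promoters, at 58.4% G or C.

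Dll4, the ligand that drives T-cell commitment when thymic epithelium carries it and that restrains sprouting in vessels, was counted mainly in Ad II nuclei. In the thymic library it had 0 UMIs in Ad Ia, 2 in Ad Ib (81.4 CPM), 34 in Ad IIa (84.7 CPM, 58.7 to 118), 6 in Ad IIb (222 CPM, 81.5 to 483) and 8 in Ad IIc (147 CPM, 63.6 to 290). Epigonadal nuclei held 1 UMI each in Ad Ia and Ad Ib (6.96 and 8.32 CPM), 47 in Ad IIa (38.0 CPM, 27.9 to 50.5), 13 in Ad IIb (92.4 CPM, 49.2 to 158) and 0 in the 658 nuclei of Ad IIc (3 UMIs would come to 5.81 CPM). Ad IIb stood highest in both libraries, and its interval overlapped that of Ad IIa in the thymic library and, by a narrow margin, in the epigonadal library. Ad IIc differed between the libraries in Dll4 as it did in endothelial markers.

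A Dll4 UMI was found in 28 of 231 thymic Ad IIa nuclei (12.1%) at a median of 1696 UMIs per nucleus and in 6.95% of epigonadal Ad IIa nuclei at a median of 1916 UMIs. With each nucleus thinned to 500 UMIs these shares were 4.37% and 2.37%. T cells should lack Dll4 and served as a measure of free RNA. Among barcodes that carry no label, 282 thymic barcodes formed a cluster with T-cell markers at a median of 1206 UMIs, and 0 of them held a Dll4 UMI, which allows a share of up to 1.06%. In the epigonadal library 0 of 245 such barcodes did, at a median of 913 UMIs, which allows up to 1.22%.

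Dll1, a second Delta ligand, was sparse. It held 5 UMIs in thymic Ad IIa (12.5 CPM) and 1 in thymic Ad IIb, and all 21 of its UMIs in labelled epigonadal nuclei lay in Ad IIa (17.0 CPM).

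Jag1, the Jagged ligand with roles in vessels and in many developing organs, had a different distribution from Dll4. In the thymic library it had 3 UMIs in Ad Ia (108 CPM), 3 in Ad Ib (122 CPM), 14 in Ad IIa (34.9 CPM, 19.1 to 58.5), 3 in Ad IIb (111 CPM) and 0 in Ad IIc. Epigonadal nuclei held 16 in Ad Ia (111 CPM), 11 in Ad Ib (91.5 CPM), 77 in Ad IIa (62.2 CPM, 49.1 to 77.8), 22 in Ad IIb (156 CPM, 98.0 to 237) and 9 in Ad IIc (17.4 CPM). Summed over Ad I, Jag1 stood at 115 CPM (42.1 to 250) in the thymic and at 102 CPM (67.4 to 149) in the epigonadal nuclei, above Ad IIa in both.

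Jag2, the other Jagged ligand, was counted mostly in Ad IIa. It had 0 UMIs in thymic Ad I, 21 in thymic Ad IIa (52.3 CPM, 32.4 to 80.0), 0 in Ad IIb and 3 in Ad IIc. The epigonadal library held 2 Jag2 UMIs in Ad I (7.58 CPM), 41 in Ad IIa (33.1 CPM), 12 in Ad IIb (85.3 CPM) and 0 in Ad IIc.

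The make-up of the ligands differed between the libraries. Of the 103 UMIs of the 4 ligands in labelled thymic nuclei, Dll4 held 48.5% (38.6 to 58.6) and Jag1 22.3% (14.7 to 31.6). Of 273 such UMIs in labelled epigonadal nuclei, Dll4 held 22.7% (17.9 to 28.1) and Jag1 49.5% (43.4 to 55.5). These shares are not corrected for gene length, so each gene can be compared between the libraries but not with another gene. In epigonadal Ad I, Jag1 held 87.1% of the 31 ligand UMIs.

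Notch1, the receptor for T-cell commitment and the main Notch receptor of endothelium, gave the most UMIs of the members in labelled nuclei, 131 in thymus and 328 in epigonadal fat, and so the narrowest relative intervals. Thymic values were 1 UMI in Ad Ia (36.2 CPM), 3 in Ad Ib (122 CPM), 105 in Ad IIa (262 CPM, 214 to 317), 10 in Ad IIb (370 CPM, 177 to 681) and 12 in Ad IIc (221 CPM, 114 to 386). Epigonadal values were 8 in Ad Ia (55.7 CPM), 6 in Ad Ib (49.9 CPM), 267 in Ad IIa (216 CPM, 191 to 243), 39 in Ad IIb (277 CPM, 197 to 379) and 8 in Ad IIc (15.5 CPM, 6.69 to 30.5). The 3 thymic Ad II labels and epigonadal Ad IIa and Ad IIb had overlapping intervals, while epigonadal Ad IIc lay below them all. A Notch1 UMI was found in 32.5% of thymic and 31.5% of epigonadal Ad IIa nuclei, and in 9.17% and 9.49% after thinning to 500 UMIs. For background, 2 of 42 erythroid-like barcodes of the epigonadal library held a Notch1 UMI (4.76%), at a median of 904.5 UMIs.

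Notch4, a receptor known mainly from endothelial cells, had 0 UMIs in thymic Ad I, 41 in Ad IIa (102 CPM, 73.3 to 139), 6 in Ad IIb (222 CPM) and 1 in Ad IIc (18.4 CPM). The epigonadal counts were 3 in Ad I (11.4 CPM), 84 in Ad IIa (67.9 CPM, 54.2 to 84.1), 12 in Ad IIb (85.3 CPM) and 4 in Ad IIc (7.75 CPM). Unlike Notch1 and Dll4, Notch4 was low in thymic Ad IIc, on a single UMI. Of the UMIs of all 4 Notch receptors, Notch1 held 68.6% in labelled thymic and 65.5% in labelled epigonadal nuclei. Notch2, a receptor that is no member, held 3.66% and 9.98% there, and 30.2% and 38.9% in the barcodes without a label. In epigonadal Ad I it held 52.6% of the 57 receptor UMIs.

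Rbpj encodes the DNA-binding factor through which all Notch receptors act, and it represses targets when no receptor fragment is bound. It was not tied to the Ad II labels. Thymic nuclei held 0 UMIs in Ad Ia, 7 in Ad Ib (285 CPM), 38 in Ad IIa (94.7 CPM), 6 in Ad IIb (222 CPM) and 9 in Ad IIc (166 CPM). In Ad IIb, 5 of the 6 UMIs came from 1 nucleus. Epigonadal nuclei held 37 in Ad Ia (258 CPM), 35 in Ad Ib (291 CPM), 106 in Ad IIa (85.7 CPM), 9 in Ad IIb (63.9 CPM) and 19 in Ad IIc (36.8 CPM). Epigonadal Ad I came to 273 CPM (214 to 344), above each of the epigonadal Ad II labels, and 1 nucleus held 8 of the 37 UMIs of Ad Ia. The 12 macrophage markers summed to 676 and 732 CPM in epigonadal Ad Ia and Ad Ib, against 228, 334 and 124 CPM in Ad IIa, Ad IIb and Ad IIc. The 12 fibroblast markers summed to 1386 and 1447 CPM in Ad Ia and Ad Ib, against 354, 369 and 1255 CPM.

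Hes1, a repressor and the most general target of Notch signalling, had 0 UMIs in thymic Ad Ia, 3 in Ad Ib (122 CPM), 50 in Ad IIa (125 CPM, 92.4 to 164), 0 in Ad IIb and 8 in Ad IIc (147 CPM). The epigonadal library held 2 in Ad Ia (13.9 CPM), 8 in Ad Ib (66.5 CPM), 72 in Ad IIa (58.2 CPM, 45.5 to 73.3), 2 in Ad IIb (14.2 CPM) and 5 in Ad IIc (9.69 CPM). A Hes1 UMI was found in 14.7% of thymic and 10.3% of epigonadal Ad IIa nuclei. In the T-cell-like barcodes, 0 of 282 thymic and 1.63% of 245 epigonadal barcodes held one.

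Hey1 and Heyl, repressors of the second target family with roles in vessels and heart, were at the edge of detection. Hey1 held 4 UMIs in thymic Ad IIa (9.96 CPM) and 1 in Ad IIb, against 17 in epigonadal Ad IIa (13.7 CPM), 8 in Ad IIb (56.8 CPM) and 3 in Ad IIc. Heyl had 1 UMI in each labelled set, in thymic Ad IIa and in epigonadal Ad Ia. It entered no RNA comparison. Of the 10 members, 7 overlap or adjoin another annotated gene within 2 kb, and the sources used here do not say whether the authors' counting used the strand.

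**Figure D1:**
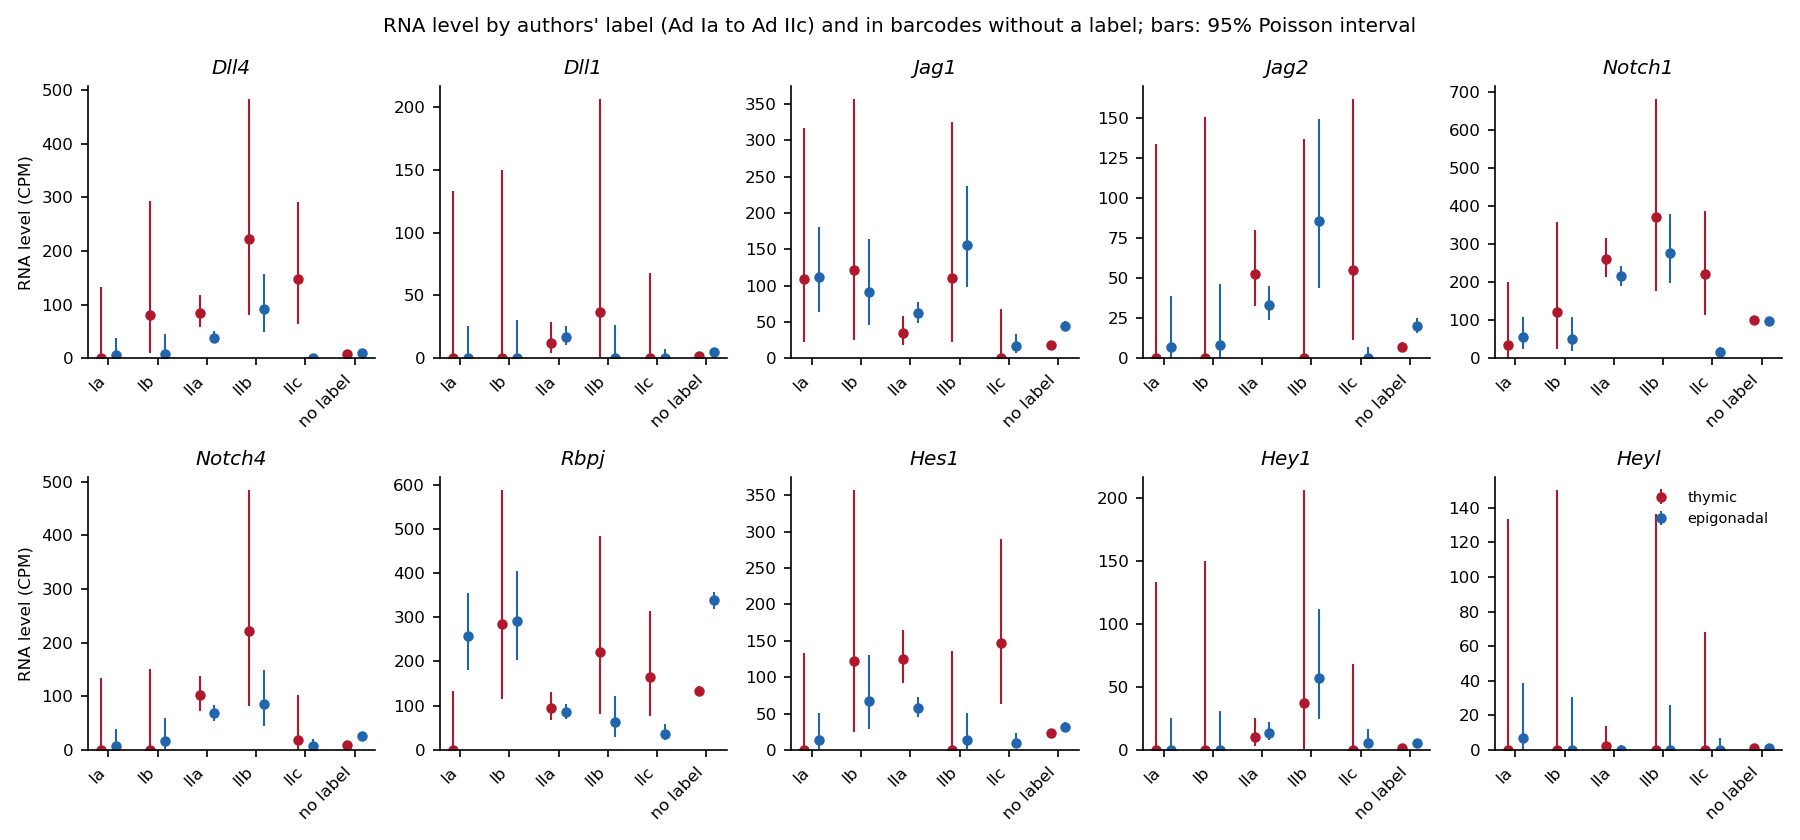
Level of each of the 10 genes (CPM of summed UMIs, vertical axis) in the 5 labels and in the barcodes without a label of the thymic and epigonadal libraries, with exact Poisson 95% intervals for counting error. Notch4 has 0 UMIs in thymic Ad I and stands at 102 and 222 CPM in thymic Ad IIa and Ad IIb, while epigonadal Rbpj is highest in Ad Ia and Ad Ib (258 and 291 CPM) among the labels.

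The labelled nuclei of the thymus were next set against those of epigonadal fat. A gene was taken as past the fold when it had at least 10 UMIs over both sums and the sums differed in CPM by at least 2-fold. Over all labelled nuclei, 9 of the 10 members had enough UMIs, and 2 were past the fold toward the thymus, Dll4 and Hes1; of all 11306 genes so compared, 8.12% were. With each nucleus weighted equally 5 members were, as Dll1, Notch1 and Notch4 joined them, against 17.2% of all genes. The other direction held 0 members against 20.2% of all genes. The members' median log2 ratio was 0.69, beside 0.02 over all genes.

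Dll4 stood at 93.5 CPM (69.4 to 123, 50 UMIs) in thymic and 28.7 CPM (22.0 to 36.8, 62 UMIs) in epigonadal labelled nuclei, a log2 ratio of 1.70 (1.13 to 2.26), or 3.26-fold. Hes1 stood at 114 CPM (61 UMIs) against 41.2 CPM (89 UMIs), a log2 ratio of 1.47 (0.97 to 1.95), or 2.77-fold. Notch4 was at 0.92 (0.38 to 1.42), Jag2 at 0.83 (0.06 to 1.53) and Notch1 at 0.69 (0.38 to 0.98), each with an interval above 0 and a ratio under 2-fold. Dll1 (0.29, -1.39 to 1.56), Rbpj (0.24, -0.21 to 0.65), Hey1 (-0.36, -2.20 to 0.92) and Jag1 (-0.52, -1.25 to 0.10) had intervals that included 0.

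The mix of labels differed between the libraries, so the comparison was repeated within labels. Ad IIa made up 231 of the labelled thymic and 590 of the labelled epigonadal nuclei, and the epigonadal set held 658 nuclei of Ad IIc, where Dll4 was at 0. Within Ad IIa, again 2 of 9 members were past the fold toward the thymus, against 5.44% of 9775 genes, and 0 toward epigonadal fat, against 16.2%. Dll4 had a log2 ratio of 1.16 (0.48 to 1.82) and Hes1 of 1.10 (0.55 to 1.64). Subtraction of the profile of barcodes without a label put Dll4 in Ad IIa at 0.996, and mitochondrial UMIs in the total put Hes1 at 0.98, each just under the fold.

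Jag1 had the lowest ratio in Ad IIa, -0.79 (-1.77 to -0.0028), so its interval ended just short of 0. Notch4 was at 0.60 (0.01 to 1.14), Jag2 at 0.67 (-0.17 to 1.45) and Notch1 at 0.28 (-0.06 to 0.61). The 9 members' median was 0.28, and that of all genes was -0.02.

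Ad I gave little depth, with 84 thymic nuclei at a median of 500.5 UMIs and 258 epigonadal nuclei at 744.5. Only Jag1, Notch1, Rbpj and Hes1 could be compared, and 0 of the 4 were past the fold in either direction, against 15.2% of 5346 genes higher and 17.0% lower in the thymic nuclei. Rbpj was nearest to the fold, at -0.94 (-2.39 to 0.09). Hes1 was at 0.75 (-1.90 to 2.56), Notch1 at 0.65 (-1.53 to 2.20) and Jag1 at 0.26 (-1.40 to 1.47). The median of the 4 was 0.45 beside 0.08 over all genes. The intervals span several-fold in both directions for Hes1 and Notch1, so no difference was detectable at this depth. The calls moved with the settings: TMM scaling put Rbpj past the fold at -1.28, and nuclei of 1000 or more UMIs put it at -2.06 and Notch1 past the fold the other way.

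Markers of several cell types also differed between the libraries. Of the 12 endothelial markers the median log2 ratio was 0.83 over all labelled nuclei (3 past the fold toward the thymus, 0 the other way) and 0.38 within Ad IIa (0 higher, 1 lower), and they summed to 10041 CPM in thymic and 7687 CPM in epigonadal Ad IIa. The adipocyte markers had a median of -4.00 over all labelled nuclei and -3.60 within Ad IIa, with 11 of 12 lower in the thymic nuclei each time. Erythroid markers summed to 521 CPM in thymic and 133 CPM in epigonadal Ad IIa. Over all labelled nuclei, 8 of 11 fibroblast markers (median -2.85) and 7 of 8 macrophage markers (-2.41) were lower in the thymic nuclei, and 4 of 6 T-cell markers (2.43) were higher. The part of these cells in the ratios of the Notch genes was not tested.

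Set against the endothelial markers of the same nuclei, a ratio chosen after the levels were seen, Dll4 had 1.03 UMIs per 100 endothelial-marker UMIs (0.761 to 1.36) in labelled thymic and 0.541 (0.414 to 0.694) in labelled epigonadal nuclei. Within Ad IIa the values were 0.843 (0.583 to 1.18) and 0.494 (0.363 to 0.658). Hes1 had 1.24 (0.919 to 1.64) in thymic and 0.757 (0.592 to 0.954) in epigonadal Ad IIa. Notch1 was at 2.60 (2.13 to 3.16) and 2.81 (2.48 to 3.17), and Notch4 at 1.02 (0.729 to 1.38) and 0.883 (0.704 to 1.09), and the intervals of Dll4, Hes1 and both receptors overlapped between the libraries in Ad IIa. Over all labelled nuclei those of Dll4 did not overlap, and those of Hes1 (0.9562 to 1.61 and 0.623 to 0.9559) only just missed each other. Jag1 was lower per endothelial marker in thymic Ad IIa, at 0.347 (0.190 to 0.583) against 0.810 (0.638 to 1.01).

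**Figure D2:**
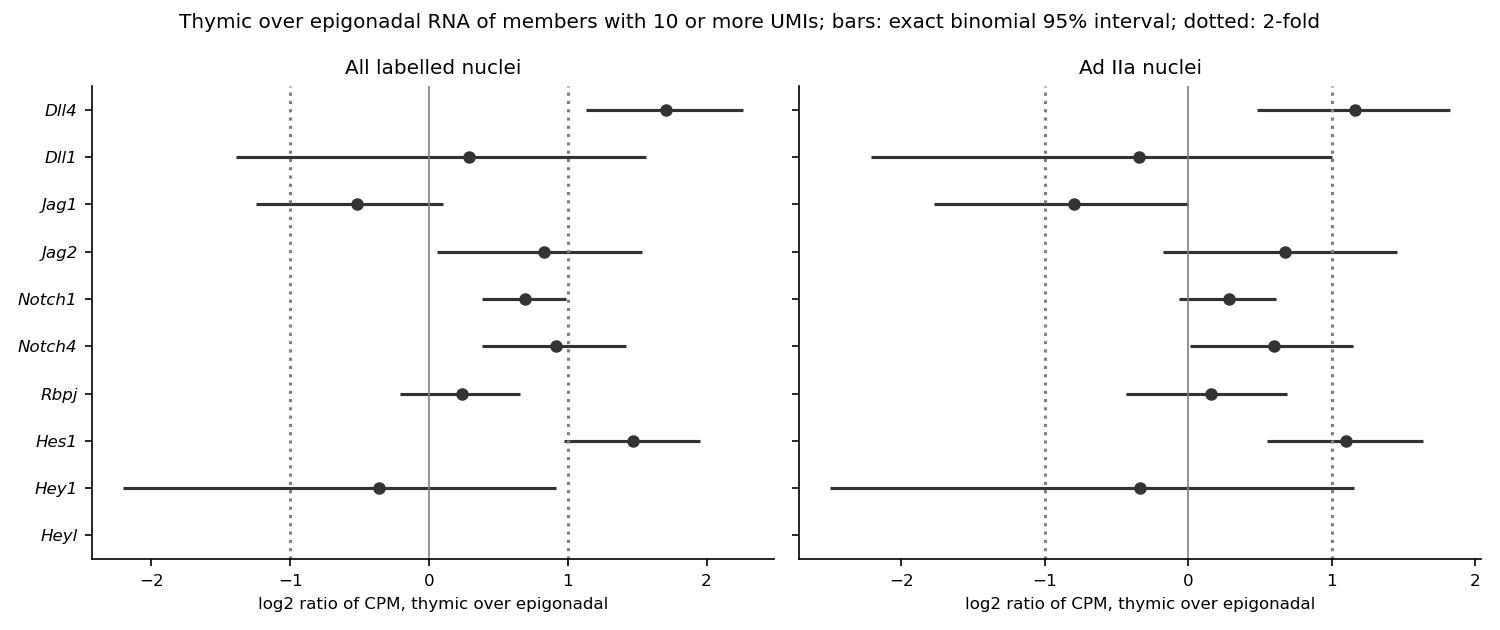
Log2 ratio of CPM, thymic over epigonadal, for each member with at least 10 UMIs over both sums, in all labelled nuclei and in Ad IIa, with 95% counting intervals. Dll4 and Hes1 lie past 1 in all labelled nuclei (1.70 and 1.47) and in Ad IIa (1.16 and 1.10).

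Ad IIa was then compared with Ad I inside each library. The authors drew these labels from the same RNA, so the differences describe the labels and support nothing beyond them. In the thymic library, 3 of 7 members were past the fold toward Ad IIa, against 28.2% of 6095 genes, and 1 toward Ad I, against 20.2%. Notch4 (41 UMIs against 0) came to a log2 ratio of 0.83 with the empty side set to 3 UMIs, and its exact counting interval began at 0.47. Jag2 (21 against 0) came to -0.13 on that footing, so no lower limit above 0 can be given for it. Notch1 was higher in Ad IIa at 1.61 (0.37 to 3.67) and Jag1 was lower at -1.78 (-3.19 to -0.05). Hes1 (0.91), Dll4 (0.84, -0.82 to 4.25, on 34 against 2 UMIs) and Rbpj (-0.58) were within the fold. With TMM scaling, which raised these ratios by 0.41, Hes1 (1.32) and Dll4 (1.25) were also past the fold toward Ad IIa, 5 members in place of 3, against 36.6% of all genes. With Notch4 and Jag2 at these values only Notch1 was past the fold toward Ad IIa. The 7 members' median was 0.91, or 0.83 with those values, beside 0.08 over all genes.

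In the epigonadal library, 6 of 9 members were past the fold toward Ad IIa, against 19.8% of 10064 genes, and 1 toward Ad I, against 17.5%. The receptors Notch4 (2.36, 0.98 to 4.88) and Notch1 (1.98, 1.25 to 2.91) and the ligands Dll4 (2.02, 0.39 to 5.41) and Jag2 (1.82, 0.18 to 5.22) stood higher in Ad IIa. Dll1 (21 UMIs against 0) came to a log2 ratio of 0.58 and Hey1 (17 against 0) to 0.27, with the empty side set to 3 UMIs. Their exact counting intervals began at 0.15 and -0.18, so that of Hey1 included 0. Rbpj was lower in Ad IIa at -1.67 (-2.12 to -1.22). Macrophage markers were 7 of 8 lower in Ad IIa with a median of -2.49. So were 8 of 8 fibroblast, 4 of 5 B-cell, 4 of 4 erythroid and 4 of 6 mural markers, with 0 higher in each list. Of 3 T-cell markers 2 were lower and 1 was higher. The part of these cells in the Rbpj value was not tested. Jag1 (-0.73, -1.37 to -0.03) and Hes1 (0.56, -0.34 to 1.74) were within the fold. With Dll1 and Hey1 set to 0.58 and 0.27, 4 members were past the fold toward Ad IIa. The members' median was 1.98, or 0.58 with those values, beside 0.07 over all genes. All 12 endothelial markers were past the fold toward Ad IIa in each library, with medians of 3.19 and 2.48.

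Within nuclei, Dll4 UMIs went with Pecam1. Among labelled thymic nuclei, Pecam1 was found in 36 of the 43 nuclei with a Dll4 UMI (83.7%, 69.3 to 93.2) and in 170 of the 322 without (52.8%, 47.2 to 58.4). Adipoq was found in 0 of the 43, which allows a share of up to 6.98%, and in 17 of the 322 (5.28%). Nuclei with a Dll4 UMI were deeper, with a median of 2207 UMIs against 1349, and the part of depth in the Pecam1 gap was not tested. T-cell-like thymic barcodes, at a median of 1206 UMIs, held Adipoq in 0 of 282 and Pecam1 in 26.2%. Whether their Pecam1 UMIs were free RNA or RNA of these cells was not tested. Inside thymic Ad IIa the Pecam1 shares were 82.1% of 28 and 70.0% of 203 nuclei, and the Cdh5 shares 78.6% and 67.0%, each with overlapping intervals.

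In the labelled epigonadal nuclei, Pecam1 was found in 44 of 52 nuclei with a Dll4 UMI (84.6%) and in 32.6% of those without. Adipoq was found in 25 of those 52 (48.1%) and in 56.7% of the rest, at medians of 2557 and 935.5 UMIs. Within epigonadal Ad IIa the Pecam1 shares were 85.4% of 41 and 71.0% of 549 nuclei, and the Adipoq shares 53.7% (37.4 to 69.3) and 47.9% (43.7 to 52.2), so the lower Adipoq share with Dll4 was not found within the label. Of the T-cell-like barcodes of this library, 17.6% held an Adipoq UMI at a median of 913 UMIs; whether from free RNA or from doublets was not tested. Notch1 was found in 46.5% of thymic and 46.2% of epigonadal nuclei with a Dll4 UMI, against 23.6% and 13.8% of the others, again with the depth gap. Within Ad IIa the Notch1 shares were 35.7% (18.6 to 55.9) and 32.0% in thymic nuclei with and without a Dll4 UMI, and 48.8% (32.9 to 64.9) and 30.2% in epigonadal nuclei. Pecam1 was found in 37 of 42 labelled thymic nuclei with a Notch4 UMI (88.1%) and in 52.3% of the 323 without, at medians of 2438 and 1358 UMIs. Within thymic Ad IIa these shares were 86.1% (70.5 to 95.3) and 68.7% (61.7 to 75.2), with overlapping intervals.

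The other genes of the pathway are described by lists of Notch components, beside 8.12% of all genes past the fold toward the thymus and 20.2% the other way. Between the labelled nuclei of both libraries, the remaining ligands (Dll3, Dlk1, Dlk2, Dner and Mfap5) did not have 10 UMIs, and of 4 receptors 0 were past the fold, with Notch2 lowest at -0.74. The glycosyltransferases that add or extend sugars on the receptor had 1 of 6 past the fold, the Fringe enzyme Rfng at -1.02 on 2 against 20 UMIs, and Pofut1 highest at 0.52. The ligases and endocytic proteins that let a ligand pull had 0 of 6, between Epn1 at -0.87 and Dnm2 at 0.86. Among the genes for receptor cleavage, Psen2, which encodes a catalytic subunit of gamma-secretase, was lower in thymic nuclei at -1.96 (-4.03 to -0.70). Of 7 genes of the nuclear complex, the co-activators Maml1 (1.23, 0.56 to 1.87) and Maml2 (1.08, 0.93 to 1.22) were higher in thymic nuclei.

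Co-repressors had 0 of 10 past the fold, with Tle4 highest at 0.94. Regulators of the receptor had 2 of 10 lower, the ligases Dtx2 (-1.71) and Dtx4 (-2.74, on 1 against 40 UMIs), and Fbxw7, which marks the active receptor for breakdown, highest at 0.86. The targets had 3 of 9 higher: Hes1, and the T-cell factors Tcf7 (3.55, 27 against 9 UMIs) and Bcl11b (1.91, 13 against 14 UMIs), with Hes6 lowest at -0.65. The T-cell markers, a list that also holds Bcl11b, summed to 374 CPM in labelled thymic and 117 CPM in labelled epigonadal nuclei. The part of T cells in the Tcf7 and Bcl11b values was not tested.

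Within Ad IIa, Maml1 was past the fold at 1.01 (0.26 to 1.72) and Psen2 at -1.89, while Maml2 (0.78, 0.62 to 0.94) no longer was. Of all genes, 5.44% were higher and 16.2% lower there. The targets had 4 of 8 higher, Tcf7 (3.77), Bcl11b (3.06), Gata3 (1.24, on 6 against 8 UMIs) and Hes1, beside 3 of 4 T-cell markers. Bcl11b is in both lists and is counted in each. The regulators had 3 of 9 lower, Dtx2, Dtx3 and Dtx4, each on 1 or 2 thymic UMIs, and Rfng was lower at -1.44 on 1 against 12 UMIs. Of the genes known from arterial endothelium, where Notch signalling is active, Efnb2 was higher in thymic Ad IIa at 1.24 (0.93 to 1.55, 155 against 202 UMIs) and Vegfc lower at -1.12, of 6 compared. Of 5 genes known from sprouting tip cells, which carry Dll4, Angpt2 was higher at 1.10. Of 11 capillary and venous genes, 0 were higher and 1 was lower, Vwf at -1.41.

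Between labels, Neurl1b, a ligase that acts on ligands, had 21 UMIs in thymic Ad IIa against 0 in Ad I, and 63 against 0 in the epigonadal library. The thymic counts equal those of Jag2 above, so no lower limit above 0 can be given for them either. Maml2 was higher in Ad IIa of both libraries, at 1.59 (thymic) and 1.03 (epigonadal), as was Numb, an inhibitor of the receptor, at 1.69 and 1.08. Notch2 was lower in epigonadal Ad IIa at -3.52 (12 against 30 UMIs) and so was the co-repressor Tle3 at -1.41. All 5 arterial genes compared in the thymic library and all 6 in the epigonadal library were past the fold toward Ad IIa, as were 4 of 4 and 3 of 5 tip-cell genes and 6 of 9 and 7 of 10 capillary and venous genes. Over all genes these shares were 28.2% and 19.8%. Thymic Ad I held 52241 nuclear-encoded UMIs against 401448 in thymic Ad IIa. For the genes of these lists the empty side was not set to 3 UMIs, so calls can rest on few or no Ad I UMIs.

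For members with at least 50 UMIs in labelled nuclei, the genes with the most similar levels were found by Pearson's correlation over 12 sums (5 labels and the barcodes without a label in each library) among 2668 genes. Several sums hold few UMIs and all sums of a library share its preparation, so the values are a description. Dll4 was most like Epha4 (0.953), Clic5 (0.947) and Samd12 (0.938). Notch1 was most like Mosmo (0.981), Rapgef1 (0.973) and Fryl (0.970), and Notch4 like Phactr1 (0.976), Rai14 (0.962) and Parvb (0.957). Jag1 was most like Zfp423 (0.955), Abca1 (0.917) and Tcf7l2 (0.889), and Jag2 like Prdm2 (0.910), Ece1 (0.891) and Pawr (0.884). Hes1 was nearest to Dcbld1 (0.918), Aqp1 (0.882) and Spred2 (0.860), and Rbpj to Far1 (0.919), Nfkb1 (0.871) and Myo9a (0.864). The 7 members share none of these genes.

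Barcodes without a label held the members at other levels. In the thymic library, 8 of 9 members were past the fold toward the labelled nuclei, against 16.6% of 13408 genes, and 0 toward the other barcodes, against 23.8%. Dll4 (3.39, 2.77 to 4.02) and Notch4 (3.33, 2.70 to 3.97) led, each at 8.91 CPM in the 22235 barcodes without a label. Jag2 (2.65), Dll1 (2.56), Hey1 (2.48), Hes1 (2.31), Notch1 (1.30) and Jag1 (1.23) followed, and Rbpj was at -0.23. The members' median was 2.48, beside -0.11 over all genes. The endothelial markers moved with them: all 12 were past the fold toward the labelled nuclei, with a median of 3.18, while the T-cell markers summed to 374 CPM in labelled and 7513 CPM in other barcodes.

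In the epigonadal library, 3 of 9 members were past the fold toward the labelled nuclei, against 5.08% of 13857 genes: Dll4 (1.51, 0.91 to 2.14), Hey1 (1.15) and Dll1 (1.02, 0.05 to 2.02). With each nucleus weighted equally Hey1 (0.63) and Dll1 (0.92) were within the fold, and with equal weight per label Dll1 turned to -0.43. Toward the other barcodes there was 1, Rbpj at -1.82 (-2.04 to -1.61), against 14.9% of genes. Rbpj stood at 95.5 CPM in labelled and 338 CPM in other epigonadal barcodes, where 10 of 12 macrophage markers were past the fold the same way (median -2.57). So were 11 of 12 fibroblast, 11 of 12 T-cell, 7 of 7 dendritic and 5 of 5 erythroid markers. Notch4 (0.89), Notch1 (0.62), Jag1 (0.51), Hes1 (0.38) and Jag2 (0.35) were within the fold. The endothelial markers had a median of 1.18 there, with 10 of 12 past the fold, beside 0.62 for the members and -0.02 for all genes.

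To see which barcodes these were, those with at least 500 UMIs and at most 20% mitochondrial UMIs were clustered without the Notch genes, and clusters were named from the fixed markers by a rule set after the clusters were seen. Only 893 of the 22235 thymic barcodes (4.02%) met these limits, against 2926 epigonadal barcodes (84.1%). The thymic clusters numbered 8, and 2 of them could be named, T-cell-like and endothelial-like. Of the 41 Dll4 UMIs in thymic barcodes without a label, 5 were in the clustered barcodes, and all 5 lay in the endothelial-like cluster of 31 barcodes (52.5 CPM, 17.1 to 123). That cluster also held Jag2 at 84.0 CPM (8 UMIs), Jag1 at 63.0 CPM (6 UMIs), Notch1 at 189 CPM (18 UMIs), Hes1 at 63.0 CPM (6 UMIs) and Notch4 at 42.0 CPM (4 UMIs).

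Notch1 was highest in an unnamed thymic cluster of 25 barcodes, at 755 CPM (502 to 1092, 28 UMIs). Il2ra, Gfra1, Notch3 and Tcrg-C4 were among its leading genes; Il2ra marks an early stage of T-cell development, and Tcrg-C4 is a gamma T-cell receptor gene. It also held Il2ra at 1187 CPM (44 UMIs), Notch3 at 540 CPM (20 UMIs), Hes1 at 135 CPM (5 UMIs) and the Notch targets Ptcra (4 UMIs) and Dtx1 (3 UMIs). Dll4, Jag1, Jag2 and Notch4 were at 0 there, where 3 UMIs would come to 80.9 CPM. The T-cell-like cluster of 282 barcodes held Notch1 at 78.5 CPM (25 UMIs) and Rbpj at 100 CPM (32 UMIs), and Hes1 at 0. Rbpj was highest in another unnamed thymic cluster of 74 barcodes, at 385 CPM (36 UMIs). Clustering from 300 UMIs gave a matching cluster of 23 barcodes with Notch1 at 907 CPM (616 to 1287, 31 UMIs).

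Markers of the thymic epithelium, which carries Dll4 in textbook accounts, summed to 360 UMIs (78.2 CPM, 11 of 12 genes) in the thymic barcodes without a label and to 408 UMIs (108 CPM) in the epigonadal ones. Psmb11, a proteasome subunit of cortical thymic epithelium, had 7 UMIs in the former. Foxn1 had 0 UMIs in the 933 thymic barcodes without a label and with at most 20% mitochondrial UMIs, and 2 in the 21302 above that limit. Dll4 had 5 UMIs (4.13 CPM, 1.34 to 9.63) below the limit and 36 (10.6 CPM, 7.44 to 14.7) above it, so most of its UMIs outside the labels came from barcodes rich in mitochondrial RNA that no cluster describes.

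The epigonadal clusters numbered 13. Its endothelial-like cluster of 346 barcodes held Dll4 at 29.8 CPM (27 UMIs), Notch1 at 189 CPM (171 UMIs), Notch4 at 70.7 CPM (64 UMIs), Hes1 at 55.2 CPM (50 UMIs), Jag1 at 59.7 CPM (54 UMIs) and Jag2 at 34.3 CPM (31 UMIs). The adipocyte-like cluster of 1243 barcodes held Dll4 at 4.69 CPM (4 UMIs), Jag1 at 28.2 CPM (24 UMIs) and Notch1 at 46.9 CPM (40 UMIs). Rbpj was highest by a wide margin in the macrophage-like cluster, at 3477 CPM (3234 to 3734, 758 UMIs), followed by the dendritic-like cluster at 687 CPM (165 UMIs). The mural-like cluster, the cells that wrap small vessels, led in Jag1 (268 CPM, 11 UMIs) and Hes1 (170 CPM, 7 UMIs). It also held Notch3, the mural receptor, at 1532 CPM (63 UMIs).

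**Figure D3:**
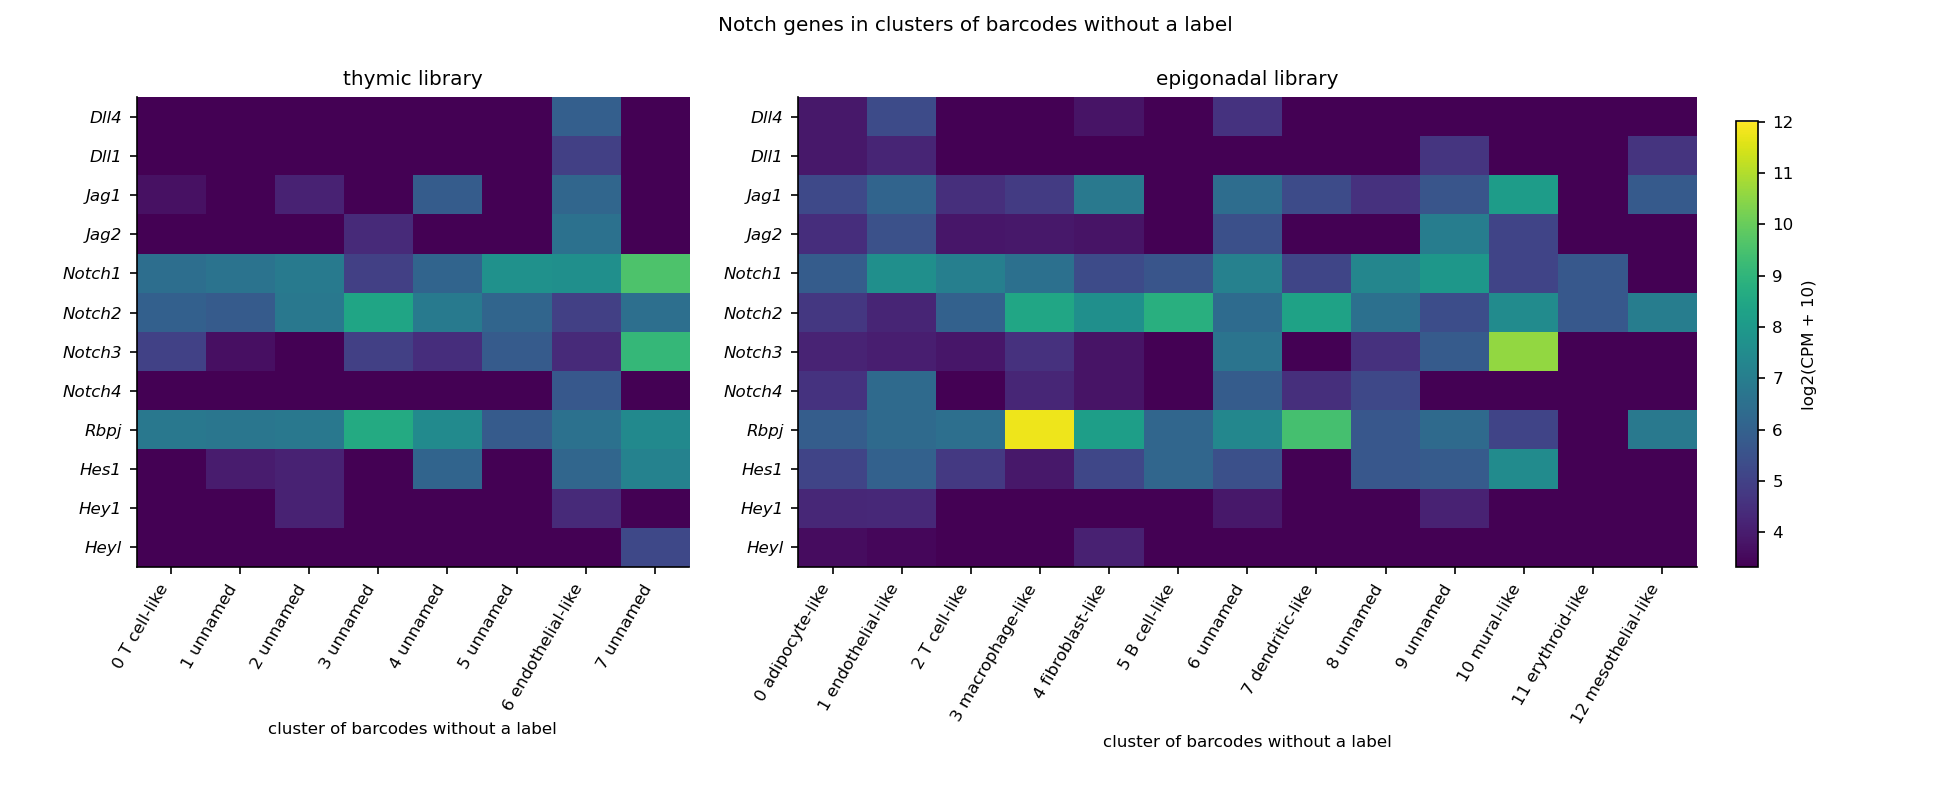
Level of the members and of Notch2 and Notch3 in each cluster of barcodes without a label (columns), thymic on the left and epigonadal on the right. Colour is log2(CPM + 10), from dark for 0 CPM to yellow. Notch1 peaks in the unnamed thymic cluster 7 (755 CPM) and Rbpj in the epigonadal macrophage-like cluster 3 (3477 CPM), while Dll4 is highest in the endothelial-like clusters.

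Chromatin was counted as fragments, pieces of DNA released by the transposase, in the 6-month thymic nuclei. Of 101060606 deposited fragments, 4397902 (4.35%) belonged to the 317 nuclei of the label table used here, 146 labelled thyAD I, 140 thyAD II and 31 Immune. Fragments over a gene body and 2 kb on either side are given as FPM, fragments per 1000000 fragments of the label. The authors' clusters may have used the same fragments, so label against label is again a description. Gene windows overlap other genes for 7 members, among them Slx4ip in that of Jag1 and Gpsm3 in that of Notch4, and such fragments cannot be assigned to a gene.

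Between thyAD II and thyAD I, a gene was past the fold at 20 or more fragments and a log2 ratio of at least 0.5 either way. The members had 3 of 10 higher in thyAD II, all ligands, against 12.1% of 23429 genes, and 1 lower, Hes1, against 8.25%. Their median was 0.09, beside 0.02 over all genes. Dll1 had 25 fragments in thyAD I (15.2 FPM), 65 in thyAD II (29.7) and 3 in Immune (5.34), and its II over I ratio was 0.95 (0.28 to 1.70). Both thyAD II clusters (31.8 and 26.5 FPM) lay above both thyAD I clusters (14.2 and 17.2). Jag2 (15, 37 and 18 fragments; 0.86, -0.01 to 1.86) and Dll4 (14, 30 and 8 fragments; 0.66, -0.27 to 1.72) were past the fold with intervals that included 0.

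Hes1, whose gene is 2.44 kb long, went the other way. It had 77 fragments in thyAD I (46.8 FPM, 36.9 to 58.4), 49 in thyAD II (22.4, 16.6 to 29.6) and 6 in Immune (10.7, 3.92 to 23.3), a ratio of -1.06 (-1.61 to -0.53) between the adipocyte labels. The thyAD I clusters stood at 46.2 and 47.8 FPM and the thyAD II clusters at 28.8 and 12.7. The labels of the chromatin and RNA libraries were given in separate tables, and no step here matched thyAD II to Ad II. The other members kept within the fold: Notch1 (-0.15), Jag1 (0.10), Notch4 (0.08), Rbpj (0.00068), Hey1 (0.0015) and Heyl (0.12).

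Of the other Notch genes, the ligand list had 4 of 7 past the fold toward thyAD II, the fourth being Dll3 at 0.77. Receptors (0 of 4) and co-repressors (0 of 10) had none in either direction. Snw1, of the nuclear complex, was higher at 0.75 (0.21 to 1.33), and among the targets Nrarp, a feedback inhibitor of Notch, was higher at 0.67 (-0.30 to 1.77). The endothelial markers had 4 of 11 higher and 1 lower, with a median of 0.20, and the adipocyte markers 0 of 12 higher and 2 lower, with a median of -0.12. Fibroblast markers had 3 of 10 higher and 1 lower (median 0.34), mural markers 4 of 11 higher (0.09) and T-cell markers 4 of 11 lower (-0.32). Their part in the ratios of the ligands was not tested.

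Against thyAD I, the Immune nuclei had 4 of 10 members higher, against 18.4% of 20090 genes, and 5 lower, against 22.6%. Jag2 (1.81, 0.74 to 2.91), Notch4 (0.72, 0.14 to 1.26), Notch1 (0.58, 0.14 to 1.0) and Dll4 (0.78, -0.71 to 2.10) were higher. Hes1 (-2.02, -3.62 to -0.94), Jag1 (-0.88, -1.41 to -0.41), Dll1 (-1.31, -3.88 to 0.21), Heyl (-0.60, -1.52 to 0.16) and Hey1 (-0.52, -1.44 to 0.24) were lower. The median of the 10 members was -0.19, beside -0.03 over all genes. Of 15 T-cell markers, a list that also holds Bcl11b, 13 were past the fold toward Immune and 0 the other way, with a median of 2.29. Of 15 Notch targets, 5 were higher and 5 lower in Immune, with a median of -0.07. Bcl11b (1.60), Tcf7 (1.60), Gata3 (1.01) and Dtx1 (1.02), known from T cells, were among the higher, and Il2ra was at -0.07.

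**Figure D4:**
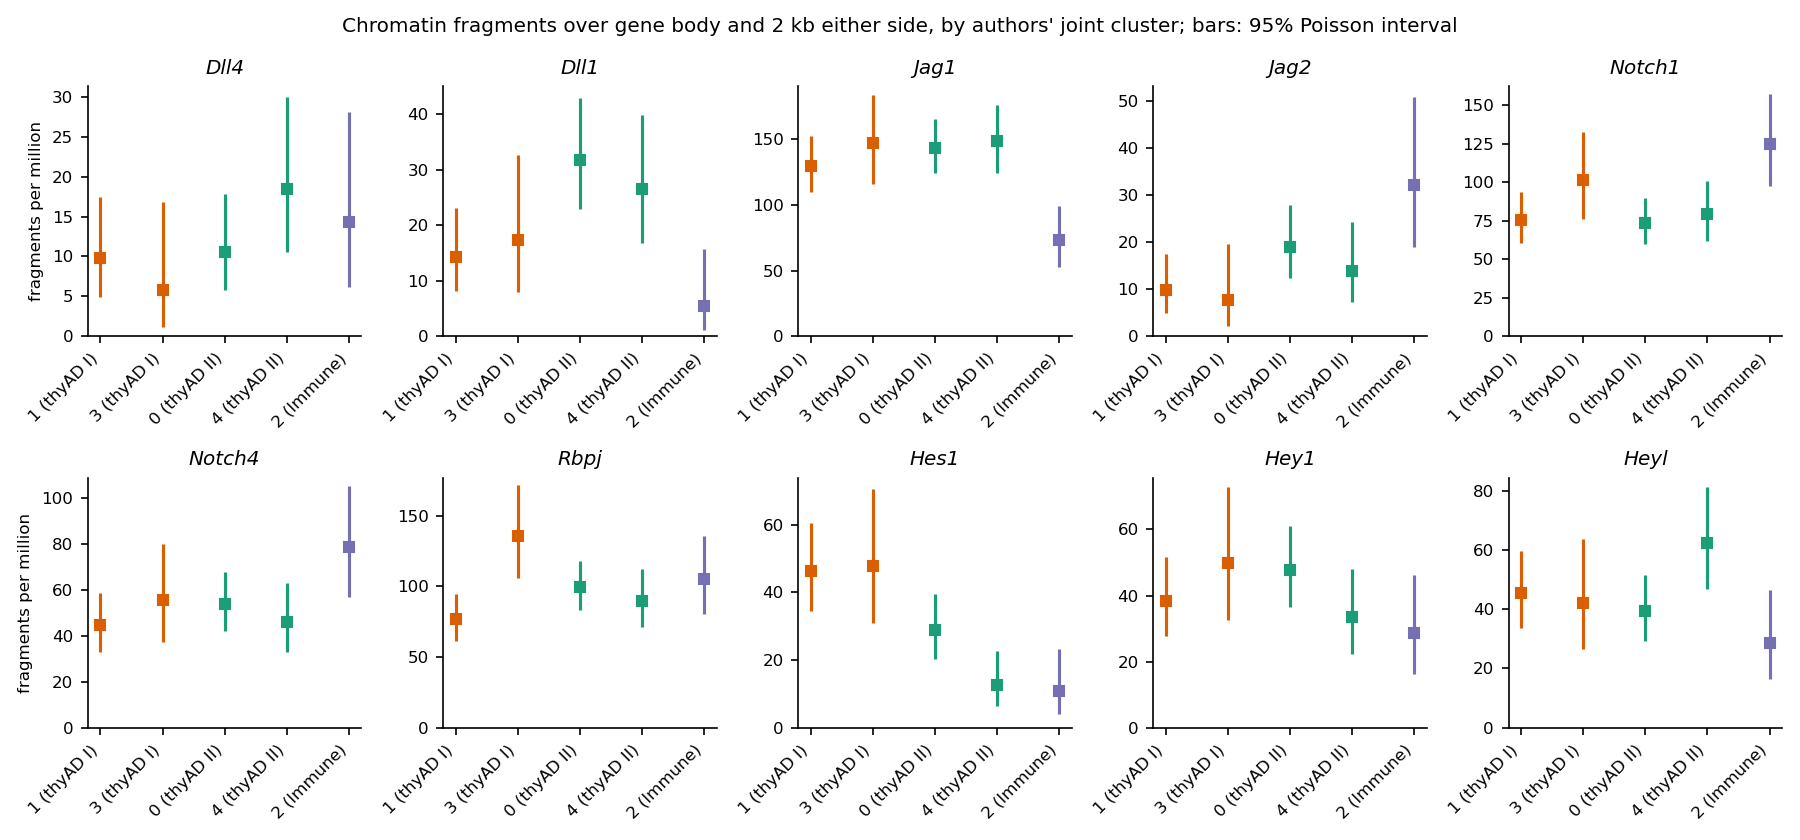
Fragments per 1000000 (FPM) over the gene body and 2 kb on either side, for each member in the 5 joint clusters of the 6-month thymic nuclei, with 95% Poisson intervals. Hes1 is highest in the thyAD I clusters 1 and 3 and Dll1 in the thyAD II clusters 0 and 4.

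The places of open chromatin differed among the members. At Notch1, the bin of 500 bases at the start (chr2:26503402-26503901) was the richest, with 17.9% of the 748 cut sites (fragment ends) of its window, and the promoter printed above held 28, 35 and 15 cut sites in thyAD I, thyAD II and Immune. The Jag1 promoter held 21, 36 and 7. The thyAD I, thyAD II and Immune labels held 1646902, 2189613 and 561387 fragments, so raw cut sites cannot be compared between them. Scaled to the fragments of each label, as for FPM, the Notch1 promoter came to 17.0, 16.0 and 26.7, highest in Immune. The Jag1 promoter came to 12.8, 16.4 and 12.5 on that scale. At Rbpj the richest bin (chr5:53590279-53590778, 27.2% of 850 cut sites) overlaps the printed promoter, inside the long gene model and not at its first base. That promoter held 22, 49 and 7 cut sites (13.4, 22.4 and 12.5 on that scale). Fragments over 1 kb on either side of the annotated starts came to 60.1, 58.5 and 60.6 FPM at Rbpj and to 36.4, 33.8 and 19.6 FPM at Jag1. The higher thyAD II values of the Rbpj and Jag1 promoters were thus not found over that span.

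Dll4 and Notch4 had little at their printed promoters. The Dll4 promoter held 2, 7 and 1 cut sites (1.21, 3.20 and 1.78 when scaled as for FPM), and its window held 99 in all. Before that window, from -3200 to -3000 bp of the Dll4 start, 1 bin of 200 bp alone held 13 cut sites in thyAD I, 12 in thyAD II and 1 in Immune. When scaled, these came to 7.89, 5.48 and 1.78. The RefSeq gene Gm14207 overlaps the window. At Notch4 the printed promoter held 2, 0 and 2 cut sites (1.21, 0 and 3.56 when scaled). Of the 466 cut sites in the Notch4 window, 244 (52.4%) fell in the bin chr17:34587286-34587785, in the gene body close to its 3′ end and near Gpsm3. The Notch4 chromatin values above are therefore set mostly by this bin. At Hes1, 65 cut sites lay in the bin chr16:30066857-30067356 of the gene body (35, 24 and 6 in the 3 labels) and 64 in the bin chr16:30063857-30064356 of the flank (42, 22 and 0). At Jag2 the richest bin (chr12:112928303-112928802) held 1 cut site in thyAD I, 14 in thyAD II and 3 in Immune (0.61, 6.39 and 5.34 when scaled).

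The start windows of 1 kb on either side gave Dll4 7, 9 and 1 fragments in thyAD I, thyAD II and Immune. As FPM these were 4.25, 4.11 and 1.78, so the higher Dll4 value of thyAD II over the whole window was not found at the start. Dll1 had 11, 31 and 0 fragments there (6.68, 14.2 and 0 FPM). Hes1 had no start entry, so 1 kb on either side of both ends of its gene was counted instead. These windows held 40, 29 and 5 Hes1 fragments (24.3, 13.2 and 8.91 FPM).

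**Figure D5:**
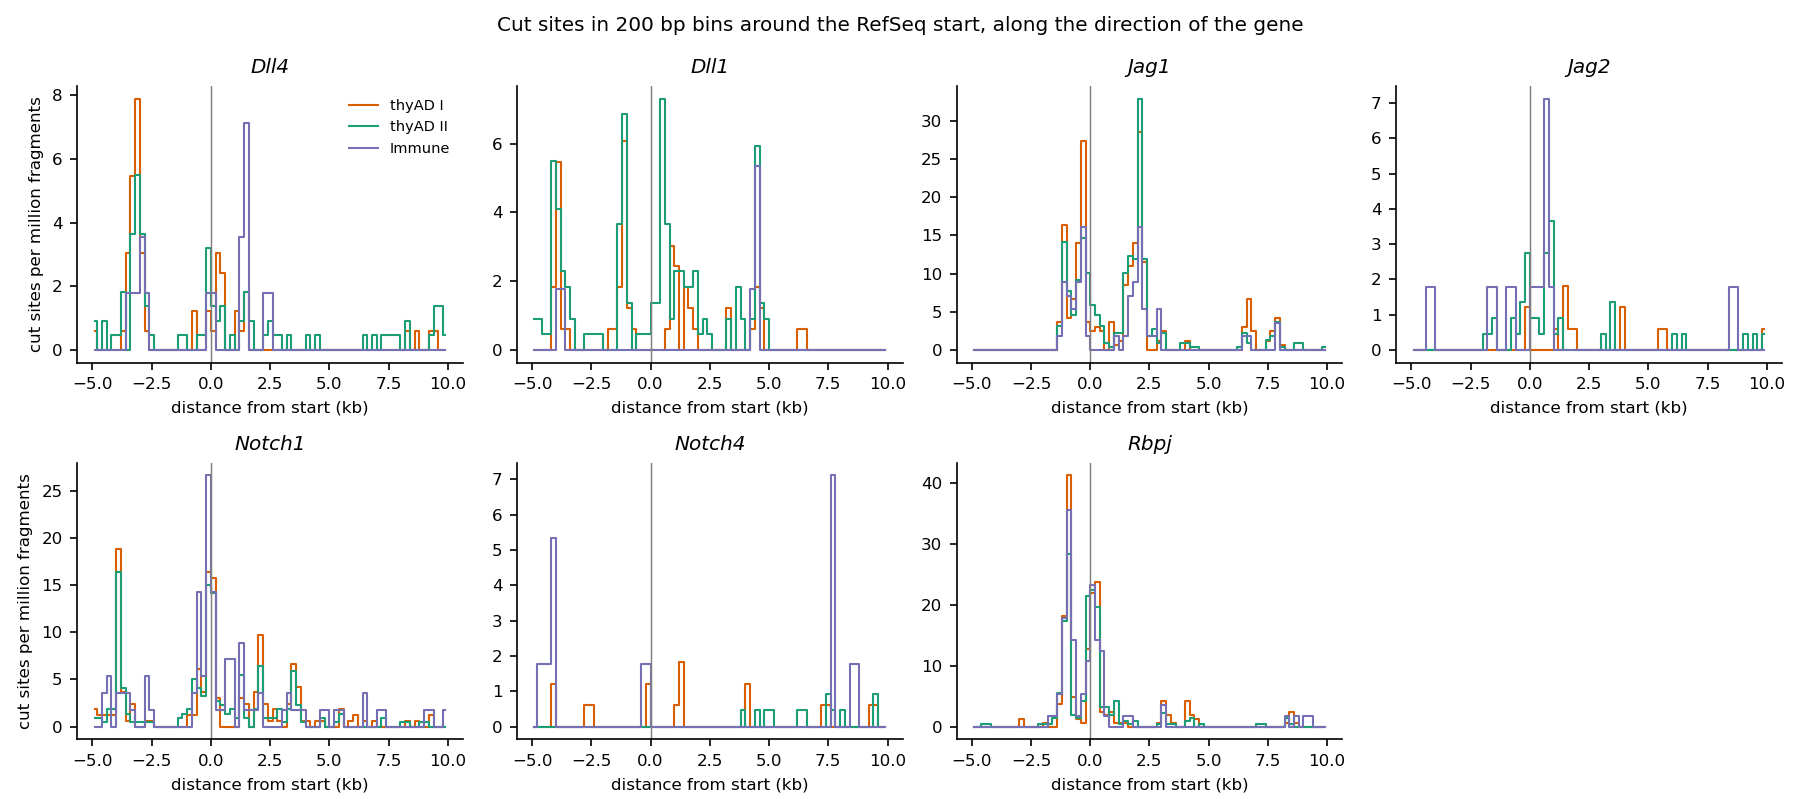
Cut sites per 1000000 fragments in bins of 200 bp by distance from the annotated start (kb), along the gene, in thyAD I, thyAD II and Immune nuclei, for the 7 members with a RefSeq start entry. Jag1, Notch1 and Rbpj show a peak of cut sites near the start, Dll4 shows its tallest thyAD bins about 3 kb before it, and Notch4 shows almost none.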

How the data were processed

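Nuclei of the floating fraction of thymus and epigonadal fat were profiled with the 10x droplet assay. Per the file headers, cellranger 7.2.0 made the deposited matrices, whose values are unnormalized UMI counts; Cell Ranger ARC 2.0.2, Seurat 5.1.0 and mm10 are named in the submitters' processing notes. The authors deposited, per labelled nucleus, a label, a doublet class and mitochondrial UMIs as a percent of all. All 1929 labelled nuclei were classed as singlets, and no further doublet step was run. Per the file headers, the fragments came from cellranger-arc 2.0.2 with GRCm38. The copy of the 6-month label table used here ends inside row 318, so 317 complete rows entered.

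UMIs were summed per label and divided by the nuclear-encoded total. Ratios had 0.5 UMI added to each sum, with exact binomial 95% intervals; levels have exact Poisson and shares Clopper-Pearson intervals, while a count of 0 is given the limit of 3 counts of the total. Sums rested on 24582 (thymic Ad Ib) to 4603069 (thymic barcodes without a label) nuclear-encoded UMIs. No test was run, since each group has 1 library, and PCR and library error are not covered by the intervals. Barcodes without a label were clustered per library on 2000 variable genes, 20 components and 15 neighbours (Leiden, resolution 0.5). Start sites and promoters came from RefSeq tables. Scripts used Python 3.11.15, scipy 1.17.1, scikit-learn 1.9.0, leidenalg 0.10.2 and edgeR 4.0.16 (TMM factors only), and the interval code was tested on simulated data. The members, gene lists, rules and tests were chosen with earlier results of these data known. The text names all 10 members, the highest and lowest gene of each pathway list with 10 or more UMIs (some are not reported here), the 3 genes most like each member with 50 or more UMIs, and some further genes past the fold, chosen after their values were seen.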

Additional observations from a re-analysis of the deposited data

How the results depend on the processing

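Of 613 recomputed member ratios, 579 stayed within the counting interval of the ratio given above, 29 left it and 5 turned direction. A turn was counted only for members past the fold, so changes of sign within the fold are not among the 5. Settings that change only the minimum of counts leave a ratio the same by construction. So does the limit of 3000 fragments per nucleus, below which 0 nuclei lay. The turned values were the Ad IIa over Ad I ratios of Jag2 in thymus (-0.56) and Hey1 in epigonadal fat (-0.0917) with 5 UMIs added in place of 0.5, the labelled over unlabelled ratio of Dll1 in the epigonadal library when each label had equal weight (-0.43, a setting added after the data were seen), and the Dll4 chromatin ratios at the start window for thyAD II (-0.0699) and Immune (-0.77) over thyAD I. Dll4 and Hes1 stayed higher in thymic than in epigonadal nuclei under every setting run over all labelled nuclei and in Ad IIa. Within Ad IIa, Dll4 ranged from 0.996 to 1.24, under the fold only with the unlabelled profile subtracted, and Hes1 fell to 0.98 with mitochondrial UMIs in the total. That setting left 1 member past the fold in Ad IIa, where 2 were counted.

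The count of members past the fold over all labelled nuclei rose from 2 to 5 with each nucleus weighted equally. In Ad I it rose from 0 to 1 with TMM scaling, equal weight per nucleus, no minimum of UMIs, mitochondrial UMIs in the total or the unlabelled profile subtracted, and to 2 with nuclei of 1000 or more UMIs or with 5 UMIs added. For Ad IIa over Ad I, the thymic count fell from 4 to 2 with 5 UMIs added and to 1 with a minimum of 50 UMIs, and the epigonadal count from 7 to 3 under either. At the start window, 2 members in place of 4 were past the fold for thyAD II and 4 in place of 9 for Immune over thyAD I. Hes1, Hey1 and Heyl had no start entry, and for them this setting counted 1 kb on either side of both gene ends. TMM scaling lowered the ratios over all labelled nuclei by 0.15 and in Ad I by 0.34, and raised those of Ad IIa over Ad I by 0.41 in thymus and 0.15 in epigonadal fat. Thinning to 500 UMIs took the share of thymic Ad IIa nuclei with Dll4 from 12.1% to 4.37%. The cause of these shifts was not tested beyond what each setting changes by construction. Except where given above, the share of all genes past the fold under a changed setting is not reported here. Those changed counts therefore cannot be read as results about the members.

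No paired analysis was possible because each group has 1 library, and for the same reason no replicate was left out. Counts limit most values: a member with 5 UMIs has an interval spanning several-fold, so Dll1, Hey1 and Heyl allow no statement on direction between the libraries.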
